A study of Mus musculus with 4 samples.

Results

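The gene set examined here joins amino acid transport, the charging of transfer RNAs and the target genes of the transcription factor ATF4. It was chosen by name, as 42 genes in 4 roles: 7 stress regulators and targets, 9 enzymes of amino acid synthesis, 14 amino acid transporters and 12 aminoacyl-tRNA synthetases. Of these, 38 were matched to a probe on the array through a mouse RefSeq transcript, with 64 probes in all, out of 17466 genes named on the array. Of these, 63 probes were well above background on all 4 arrays, and 1 probe of Slc7a5 was so on the 3 arrays left after an outlier spot on passage 7 replicate 1 was removed, so none was lost to the filter on dim probes. Pycr1, Aldh18a1, Cth and Wars were not matched to a probe and were not analysed here.

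The tested cells were mouse embryonic fibroblasts (MEFs) at passage 7, when replicative senescence set in, and they were set against growing MEFs at passage 2. MEFs are primary connective tissue cells taken from embryos, and replicative senescence is the lasting arrest of division that follows repeated passaging. The cells were of 1 kind at both passages, with no strain, genotype, agent or embryonic age in the labels, and both were kept in DMEM medium with fetal bovine serum and penicillin and streptomycin. There were 2 arrays per passage, each hybridised with 1 dye. RNA of 3 cultures was pooled before the measurement, so the arrays of a passage may be technical repeats, and p-values then measure only the spread between arrays.

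Amino acid shortage leaves transfer RNAs uncharged, and these activate the kinase GCN2, which phosphorylates the translation factor eIF2. Protein synthesis then slows, while the messenger RNA of Atf4 is translated more, so that ATF4 protein can rise without a change in its RNA. ATF4 binds with C/EBP partners to promoters of transporters, synthetases and synthesis enzymes, and it induces the factor CHOP (Ddit3), which is tied to cell death under lasting stress. Other kinases feed the same step from stress in the endoplasmic reticulum, viral RNA or lack of haem.

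The 7 fibroblast markers were well above background on all 4 arrays, with a summed level of 547 and 834 at passage 7 and 436 and 334 at passage 2, in units of the array's 75th percentile. S100a4 had the highest level of these on every array and weighs most in the sum, so the sum does not describe each marker. Of the markers of all cell types, limma called Pdgfra (fibroblast), Adgre1 and Csf1r (macrophage) and Krt8, Krt18 and Krt14 (epithelial) lower at passage 7, and Map2 (neural) higher. Macrophage markers, 4 of 6 listed, summed to 0.52 and 0.739 at passage 7 against 1.53 and 1.49 at passage 2. Of the 4, Ptprc was not well above background on any array, while Adgre1, Csf1r and Itgam were so on both passage 2 arrays. At passage 7, Csf1r was so on both arrays and Adgre1 and Itgam on 1. The 6 epithelial markers summed to 0.257 and 0.391 at passage 7 against 1.18 and 1.03 at passage 2. Endothelial markers, 4 in number, summed to 0.449 and 0.371 at passage 7 against 0.397 and 0.407 at passage 2, and 3 neural markers to 7.5 and 7.26 at passage 7 against 5.63 and 6.86 at passage 2. The log2 change of the endothelial markers was 0.84 for Kdr, -0.71 for Cdh5, -0.91 for Tek and -0.15 for Pecam1, and none was called. The part of these cell types in the results below was not tested. In bulk RNA, fewer cells of a type and less RNA per cell cannot be told apart. Spots well above background made up 70.6% and 65.8% at passage 7, against 71.9% and 72.7% at passage 2, and passage and position on the slide cannot be told apart.

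ATF4 with a C/EBP partner binds a composite element whose core can be written TGATGNAA. It was searched on both strands from 250 bases before to 50 bases after each gene's annotated start, taken from RefSeq on build GRCm38.p6. Sites outside these 300 bases were not searched, so a gene without the core there may hold one elsewhere. Of 32 listed genes with an entry, 12 held the core in at least 1 promoter (37.5%), against 1219 of 27025 genes in the table (4.51%). Because the set was chosen by name to include ATF4 targets, a higher share than over all genes is no independent finding. The stricter TGATGCAA, which is contained in the first pattern, was present in 9 of the 32 (28.1%) and in 279 of all genes (1.03%). By role, the TGATGNAA core was found in 5 of 8 synthetases, 3 of 7 stress genes, 2 of 8 synthesis enzymes and 2 of 9 transporters. Cars, Slc38a1, Slc7a3, Cth, Nars, Wars, Slc7a5, Lars, Slc1a5 and Slc38a3 had no entry. The windows below show the core in 8 of the genes, to let the sites of stress targets, a transporter and synthetases be compared. Each window is 40 bases long and is read along the strand of the core, which is in capitals.

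Chac1 (chr2:119351033-119351072, minus strand): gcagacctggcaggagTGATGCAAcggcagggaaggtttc

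Trib3 (chr2:152344023-152344062, plus strand): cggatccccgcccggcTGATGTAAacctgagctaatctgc

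Vldlr (chr19:27216804-27216843, minus strand): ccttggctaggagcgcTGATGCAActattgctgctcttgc

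Asns (chr6:7693209-7693248, minus strand): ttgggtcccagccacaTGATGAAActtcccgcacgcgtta

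Slc7a7 (chr14:54417922-54417961, minus strand): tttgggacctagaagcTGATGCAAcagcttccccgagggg

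Iars (chr13:49682121-49682160, minus strand): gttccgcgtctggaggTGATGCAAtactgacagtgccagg

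Tars (chr15:11399650-11399689, plus strand): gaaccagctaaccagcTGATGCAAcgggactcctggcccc

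Yars (chr4:129189890-129189929, plus strand): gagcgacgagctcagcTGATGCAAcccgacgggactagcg

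The core read TGATGCAA in 6 of these windows, TGATGAAA in Asns and TGATGTAA in Trib3. Relative to the annotated start, and read along the gene, the core began 200 bases before it in Vldlr, 193 before it in Chac1, 23 before it in Asns, 15 before it in Tars and 1 before it in Slc7a7. It began 3 bases after the start in Yars, 7 after it in Iars and 14 after it in Trib3. The core was also found in Aars (at 2 sites), Gars, Slc1a4 and Pycr1, and at a second site of Slc7a7. A match is a description of the letters and not a bound site.

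Setting passage 7 against passage 2 addresses which of these genes changed between growth and senescence. Levels are log2 processed signals, with the 75th percentile of each array set to 0, and those of different genes are not comparable. A call needed an adjusted p under 0.05 in limma together with a change of at least 2-fold. Ddit3 was the 1 member called higher, or 2.63% of the 38, beside 9.99% of 13847 genes tested. Vldlr, Psat1, Slc7a3, Slc7a8 and Slc1a5 were called lower, or 13.2% of the members, beside 9.42% of all genes. The other 32 members were not called. Under the normexp background correction, limma called 0 members and 0 of all genes, with 664 genes at an unadjusted p under 0.05. The passage 7 arrays lay both above the passage 2 arrays for 13 members and both below for 18, where the shares of all genes were 40.5% and 27.7%.

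The median change of the members was -0.19 on the log2 scale, against 0.20 for all genes tested. That median of all genes depended on the scaling, at 0.02 after quantile normalization, 0.03 after median scaling and -0.06 in the table of the authors, so changes near 0 carry no settled sign. Relative to all genes, the median was 0.24 for the stress genes, -0.50 for the synthesis enzymes, -0.61 for the transporters and -0.04 for the synthetases. The value of the stress genes was -0.26 after quantile normalization, while those of the other 3 roles kept their sign there.

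**Figure D1:**
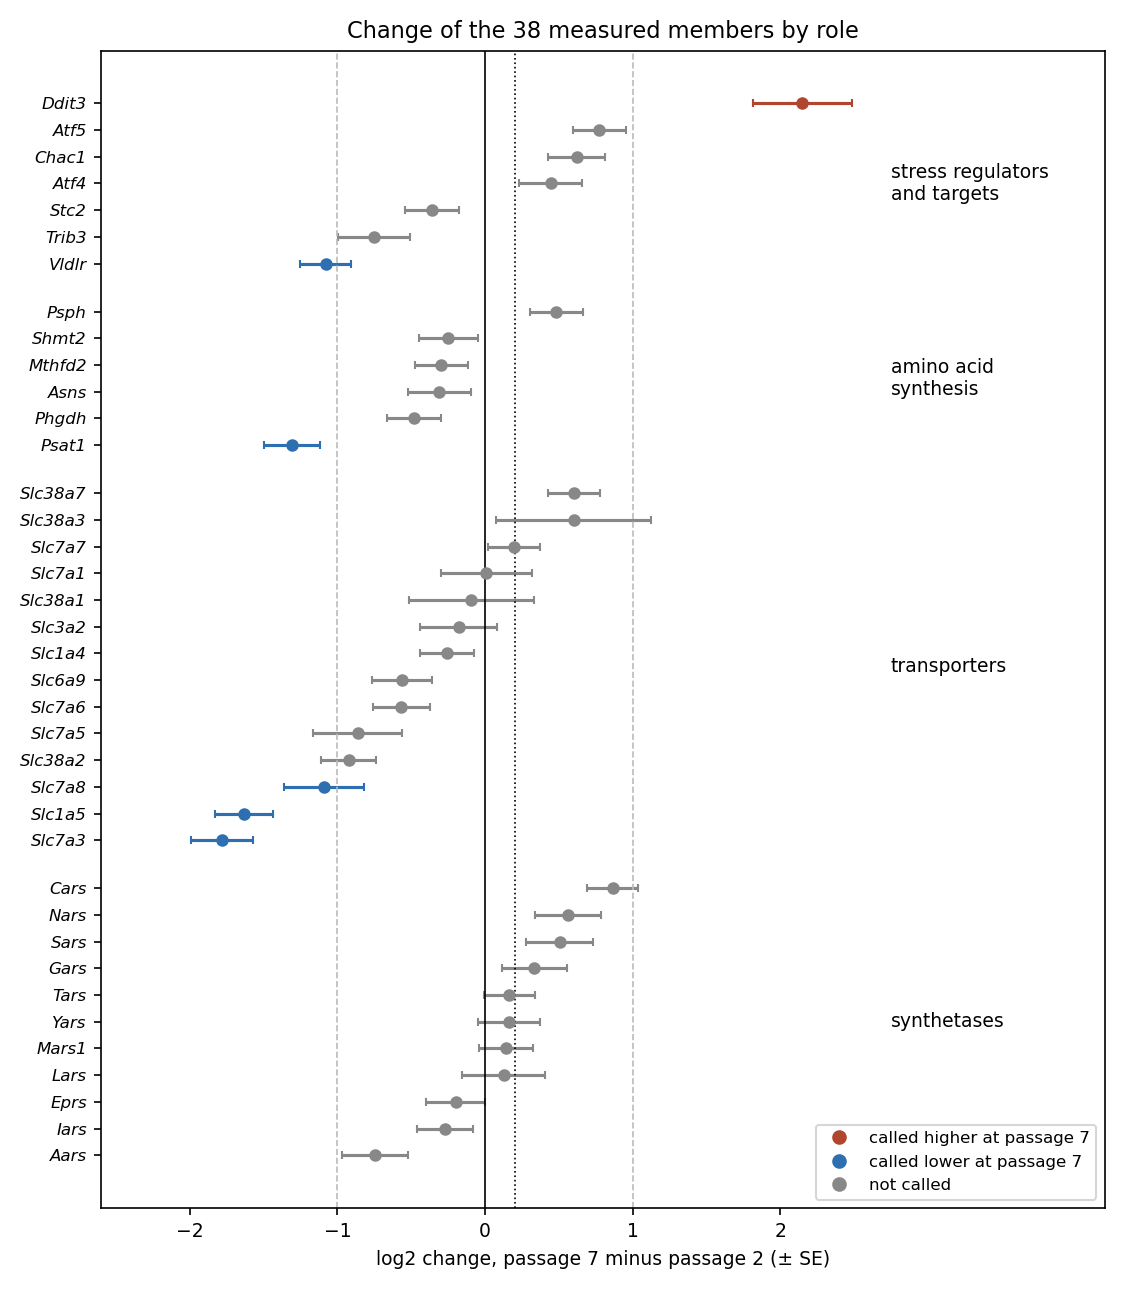
Log2 change (horizontal axis, passage 7 minus passage 2, ± SE of limma) of the 38 measured members, ordered within each role. Dashed lines mark a 2-fold change, the solid line 0 and the dotted line the median of all genes at 0.20. Ddit3 alone lies far to the right at 2.15, and the largest falls are of the transporters Slc7a3 and Slc1a5, while all 11 synthetases stay inside the 2-fold lines.

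Among the stress regulators and targets, Ddit3 rose, Vldlr fell and 5 of 7 did not pass. Ddit3, the gene of CHOP, had levels of 4.99 and 4.96 at passage 7, against 3.26 and 2.39 at passage 2. Both passage 7 arrays lay above both passage 2 arrays, which differed from each other by more than the passage 7 pair. The change was 2.15 ± 0.34 (SE; 4.43-fold higher; adjusted p = 0.017 in limma). With 1 array left out it lay between 1.71 and 2.59 and was still called.

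Atf4 itself was at 6.66 and 6.94 at passage 7, against 6.49 and 6.22 at passage 2. The groups did not overlap, but the change of 0.45 ± 0.21 did not pass (adjusted p = 0.19 in limma), and it was -0.23 after quantile normalization and -0.11 in the authors' value table. Atf5, a relative of ATF4 that is translated in the same way under stress, had a change of 0.77 ± 0.18 (adjusted p = 0.041), which stayed under 2-fold. The change of Atf5 was 0.12 (adjusted p = 0.73) after quantile normalization and 0.21 (adjusted p = 0.48) in the authors' value table, and its adjusted p was 0.06 to 0.29 with 1 array left out.

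Trib3, a pseudokinase induced by ATF4 and CHOP that restrains ATF4, was at 2.91 and 2.73 at passage 7 and at 3.81 and 3.33 at passage 2. Both passage 7 arrays were the lower ones, with a change of -0.75 ± 0.24 (adjusted p = 0.084 in limma), and the gene was called only after quantile normalization (-1.08, adjusted p = 0.025) among the scalings run. Chac1, an enzyme that breaks down glutathione, was at 2.10 and 2.05 at passage 7 and at 1.58 and 1.32 at passage 2. Its change of 0.62 ± 0.19 did not pass (adjusted p = 0.077 in limma). The estimates for Chac1 and Trib3, both targets downstream of ATF4, had opposite signs.

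Vldlr, the receptor of very-low-density lipoprotein, was at -0.35 and -0.38 at passage 7 and at 0.67 and 0.76 at passage 2. The groups were far apart next to their own spread, and the gene fell by 1.08 ± 0.17 (2.11-fold lower, adjusted p = 0.018 in limma). Leaving out passage 7 replicate 1 ended the call (adjusted p = 0.1), as did leaving out passage 7 replicate 2 (adjusted p = 0.13). Stc2, the secreted glycoprotein stanniocalcin 2, had a change of -0.36 and did not pass (adjusted p = 0.21 in limma).

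**Figure D2:**
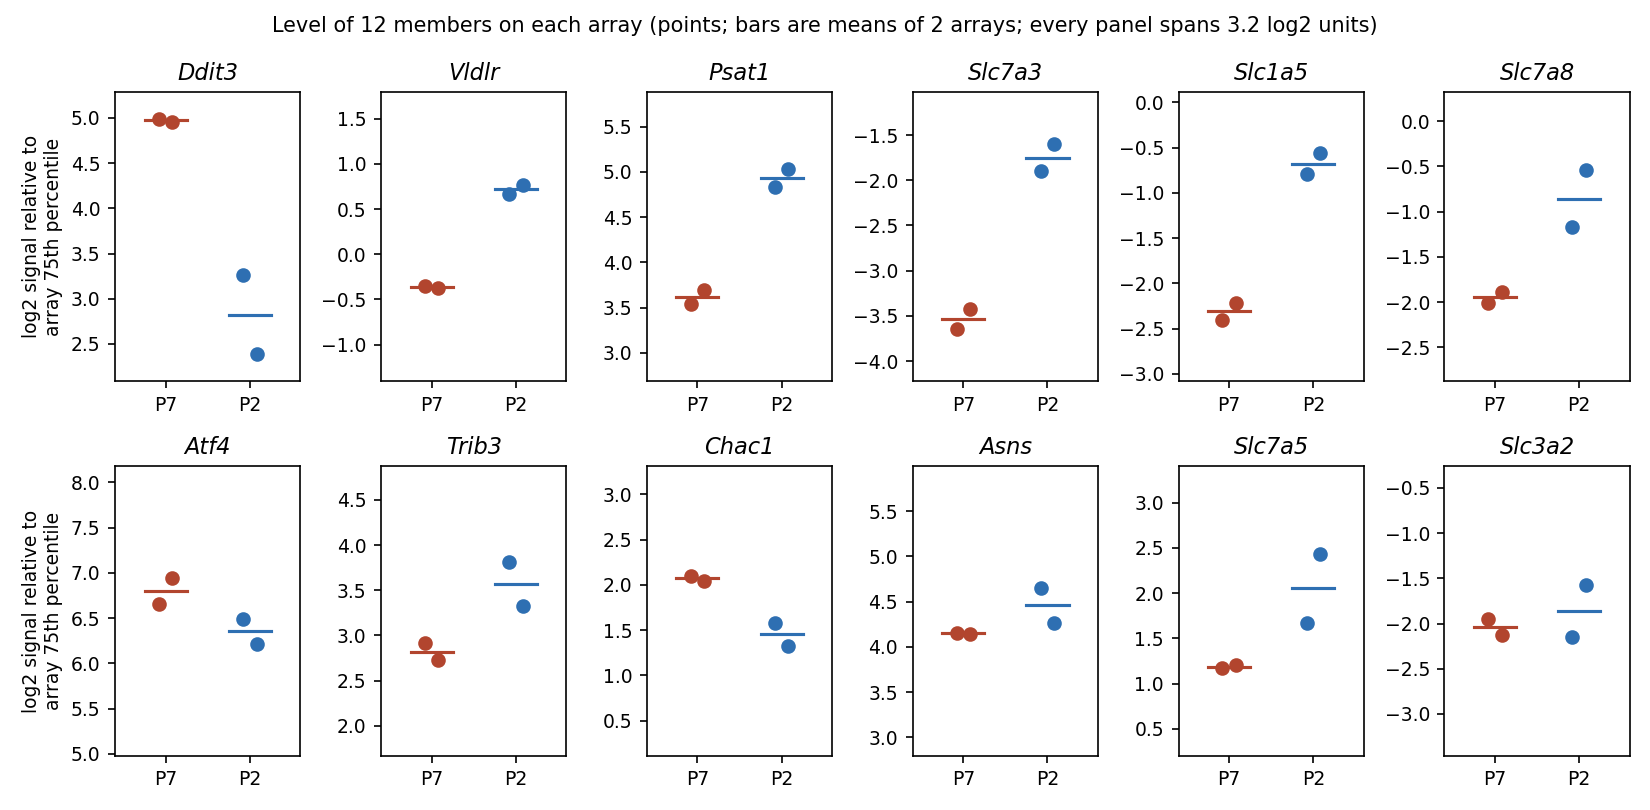
Levels of 12 members on each array (points; bars are the means of 2 arrays), with passage 7 (P7) left of passage 2 (P2); the vertical axis is the log2 signal over the 75th percentile of that array, and each panel spans the same number of log2 units around its own centre. Ddit3 lies higher at passage 7, Vldlr, Psat1, Slc7a3, Slc1a5 and Slc7a8 lie lower there, and the arrays of Slc3a2 overlap between the passages.

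Of the 6 enzymes of amino acid synthesis on the array, Psat1 fell and 5 did not pass, with 5 of the 6 changes below 0. Psat1, which makes phosphoserine on the way to serine, was at 3.54 and 3.70 at passage 7 and at 4.83 and 5.03 at passage 2. The 4 arrays split cleanly by passage. The gene fell by 1.31 ± 0.19 (2.48-fold lower, adjusted p = 0.015 in limma). Leaving out passage 7 replicate 1 ended the call of Psat1 (adjusted p = 0.082), as did leaving out passage 7 replicate 2 (adjusted p = 0.067).

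The neighbouring steps of the serine pathway did not move with Psat1 past the test. Phgdh, the enzyme of the first step, had a change of -0.48 (adjusted p = 0.12 in limma), and Psph, that of the last step, one of 0.48 (adjusted p = 0.12). The mitochondrial one-carbon enzymes Shmt2, which uses serine, and Mthfd2 changed by -0.25 and -0.30 (adjusted p = 0.39 and 0.28 in limma). Asns, the asparagine synthetase that is a standard readout of ATF4, was at 4.15 and 4.14 at passage 7, against 4.65 and 4.26 at passage 2. Its passage 7 arrays were both below those of passage 2, yet 1 of the passage 2 arrays lay close by, and the change of -0.31 ± 0.21 did not pass (adjusted p = 0.33 in limma).

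Of the 14 transporters, 3 fell, none rose and 11 did not pass. In limma, 7 were lower and 1 higher at an unadjusted p under 0.05, a threshold that 17.4% of all genes passed as lower and 24.2% as higher. Slc7a3, a carrier of cationic amino acids, was at -3.65 and -3.42 at passage 7 and at -1.90 and -1.60 at passage 2. Slc1a5, the main plasma membrane exchanger of glutamine and other neutral amino acids, was at -2.41 and -2.21 at passage 7 and at -0.79 and -0.56 at passage 2. In both genes the gap between the passages was several times that between arrays of a passage. The size of both falls depended on the background correction. Under normexp, Slc7a3 changed by -0.10 and Slc1a5 by -0.55, and with quantile normalization after it by -0.97 and -1.02. Without that correction, Slc7a3 fell by 1.78 ± 0.21 (3.44-fold lower) and Slc1a5 by 1.63 ± 0.20 (3.10-fold lower), with adjusted p-values of 0.01 and 0.011 in limma. Both were called without any 1 of the arrays.

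Slc7a8, a light chain that carries neutral amino acids and pairs with the heavy chain Slc3a2, was at -2.01 and -1.89 at passage 7 and at -1.17 and -0.55 at passage 2. It fell by 1.09 ± 0.27 (2.13-fold lower), just past the threshold (adjusted p = 0.047 in limma). The call ended on leaving out passage 7 replicate 1 (adjusted p = 0.16), passage 7 replicate 2 (adjusted p = 0.15) or passage 2 replicate 2 (adjusted p = 0.076).

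Slc7a5, the light chain that carries leucine and other large neutral amino acids, was at 1.18 and 1.20 at passage 7, against 1.67 and 2.43 at passage 2. The passage 2 arrays lay apart from each other. The change of -0.86 ± 0.30 did not pass (adjusted p = 0.1 in limma), and it was called with median scaling (-1.03, adjusted p = 0.041), in the authors' value table (-1.15, adjusted p = 0.011), with normexp and quantile normalization (-1.01, adjusted p = 0.033) and on leaving out passage 2 replicate 1 (-1.24, adjusted p = 0.029). Leaving out passage 2 replicate 2 gave Slc7a5 a change of -0.48 (adjusted p = 0.15). Slc3a2, the heavy chain that takes these light chains to the cell surface, was at -1.95 and -2.13 at passage 7 and at -2.15 and -1.57 at passage 2. Its arrays overlapped, with a change of -0.18 ± 0.26 (adjusted p = 0.64 in limma). The light chains Slc7a6 and Slc7a7, which exchange cationic for neutral amino acids, changed by -0.57 and 0.20 and did not pass (adjusted p = 0.097 and 0.45).

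Slc38a2, the sodium-coupled carrier of small neutral amino acids that is induced by amino acid shortage, had a change of -0.92 ± 0.19 (adjusted p = 0.029 in limma), which was 1.90-fold and so under the minimum. With 1 array left out, the adjusted p of Slc38a2 was 0.044 to 0.22. It was past that minimum after quantile normalization (-1.23, or -1.16 with normexp before it), under median scaling (-1.09) and in the table of the authors (-1.13). Its relatives Slc38a1, Slc38a3 and Slc38a7 changed by -0.09, 0.60 and 0.60, and none passed (adjusted p = 0.89, 0.44 and 0.066). Slc38a7, which exports glutamine from lysosomes, was the only transporter at an unadjusted p under 0.05 with a rise in its estimate. Slc1a4, a carrier of alanine, serine and cysteine related to Slc1a5, changed by -0.26 (adjusted p = 0.35). Slc6a9, a glycine carrier, changed by -0.56 and did not pass (adjusted p = 0.11). Slc7a1, the widespread carrier of arginine and lysine, had a change of 0.01 (adjusted p = 0.99).

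None of the 11 measured synthetases was called in either direction by limma, and 1 was higher (24.2% of all genes) and 1 lower (17.4% of all genes) at an unadjusted p under 0.05. These enzymes join each amino acid to its transfer RNA in the cytosol. Their changes lay between -0.75 and 0.86, with 8 above 0 and 3 below, a split that moved with the scaling as given below. Cars, the synthetase of cysteine, was at 3.58 and 3.62 at passage 7, against 2.70 and 2.77 at passage 2. The passages were far apart next to the spread, and the change of 0.86 ± 0.17 was the largest of the role (adjusted p = 0.029 in limma), at 1.82-fold and so under the minimum. The change of Cars was 0.56 (adjusted p = 0.09) after quantile normalization and 0.70 (adjusted p = 0.11) with median scaling, and its adjusted p was 0.048 to 0.21 with 1 array left out.

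Aars, the synthetase of alanine, stood at the other end with a change of -0.75 (adjusted p = 0.073 in limma). The probe used for Aars was dim, with signals of 40.6 and 19.5 at passage 7. Its change was 1.12 under the normexp background correction, with the opposite sign. Nars and Sars, for asparagine and serine, changed by 0.56 and 0.51 (adjusted p = 0.13 and 0.16), and Gars, for glycine, by 0.33 (adjusted p = 0.31). Tars, Yars, Mars1 and Lars, for threonine, tyrosine, methionine and leucine, had changes of 0.17, 0.16, 0.14 and 0.13. Those of Tars, Yars and Mars1 were below 0 in the authors' value table, with median scaling and after quantile normalization. That of Gars was below 0 in the first and last of these settings, and that of Lars with quantile normalization and median scaling. Eprs, which serves glutamate and proline, changed by -0.20 and Iars, for isoleucine, by -0.27. None of these 6 passed, with adjusted p-values of 0.34 to 0.76 in limma.

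Across roles, the transporters held 3 of the 5 falls and the synthetases none, while the single rise lay among the stress genes. That made 21.4% of the transporters and 0% of the synthetases lower, beside 9.42% of all genes. Of the stress genes, 14.3% were higher and 14.3% lower, 1 gene each, beside 9.99% and 9.42% of all genes. Whether the roles differ from each other was not tested. Each difference between 2 arrays of a passage gives a scale for these values. Its median over the members was 0.16 at passage 7 and 0.239 at passage 2, against 0.179 and 0.325 over all genes. The change was larger than both of these gaps for 29 of 38 members and for 8007 of 13847 genes.

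A gene was represented by its probe of highest mean, and 18 members had more than 1 probe. The probes of 17 of them gave the same direction. The exception was Yars, with -0.10 at 1 probe against 0.20 and 0.16 at the others. When every probe was tested as its own feature, 3 member probes were higher (9.76% of all probes were) and 7 were lower (10.8% of all probes). The 3 higher ones were all of Ddit3, with changes of 2.09, 2.09 and 2.15. Both probes of Psat1 (-1.18 and -1.31) and of Slc1a5 (-1.53 and -1.63) were called lower. Phgdh had -0.89 at its other probe (adjusted p = 0.024 in limma), under 2-fold, against -0.48 at the one used. Atf4 varied most among the uncalled stress genes, with 0.45, 0.35 and 0.07 at its probes.

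**Figure D3:**
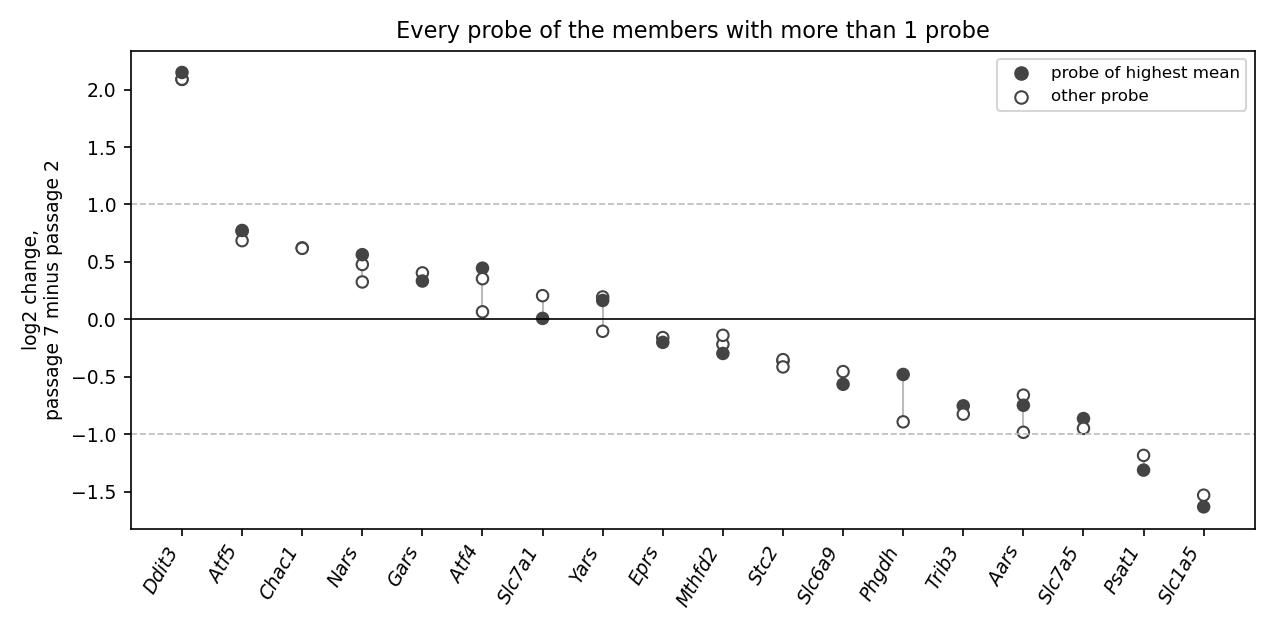
Log2 change (vertical axis, passage 7 minus passage 2) at every probe of the 18 members with more than 1 probe; filled points are the probe of highest mean, open points the others, and dashed lines mark a 2-fold change. The 3 probes of Ddit3 lie together above 2, and the probes of Yars fall on both sides of 0.

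Further genes of the same pathways were taken from lists that do not share members with the set. Of 14 other stress response genes tested, Nupr1 and Atf3 rose (14.3%, beside 9.99% of all genes) and 12 did not pass. At an unadjusted p under 0.05 in limma, 2 were higher and 3 lower, beside 24.2% and 17.4% of all genes. The median change of the list relative to all genes was -0.06. Nupr1, a chromatin protein induced by ATF4 and nutrient stress, was at 6.72 and 7.12 at passage 7, against 4.22 and 3.64 at passage 2. It rose by 2.99 ± 0.29 (7.93-fold, adjusted p = 0.0071 in limma). Atf3, a repressor induced by ATF4, was at 0.95 and 1.03 at passage 7, against -0.49 and -0.33 at passage 2, and rose by 1.40 ± 0.18 (2.63-fold, adjusted p = 0.012).

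Of 15 genes of the eIF2 kinases, eIF2 and its phosphatase, 14 did not pass and 6.67% were called higher, beside 9.99% of all genes. The 1 that rose was Ppp1r15a. It encodes GADD34, the stress-induced subunit that directs the phosphatase to eIF2 and is a target of ATF4 and CHOP. Its levels were 1.96 and 1.99 at passage 7, against 0.88 and 0.48 at passage 2, and it rose by 1.29 ± 0.22 (2.44-fold, adjusted p = 0.02 in limma). Its relative Ppp1r15b, the constitutive subunit, had a change of -0.92 (adjusted p = 0.038), under 2-fold. It was dim, at -5.40 and -5.68 at passage 7, against -4.73 and -4.51 at passage 2. The lowest level well above background on passage 7 replicate 2 was -6.00. Ppp1r15b was named after its values were seen. Leaving out passage 7 replicate 1 gave Ppp1r15a and Atf3 adjusted p-values of 0.08 and 0.056, and leaving out passage 7 replicate 2 gave 0.096 and 0.072, which ended both calls.

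Of 12 other amino acid transporters tested, 4 fell (33.3%), 2 rose (16.7%) and 6 did not pass, beside 9.42% of all genes lower and 9.99% higher. Slc38a4, a carrier of neutral and cationic amino acids, was at -2.92 and -2.81 at passage 7, against 1.70 and 1.91 at passage 2, and it fell by 4.66 ± 0.19 (adjusted p = 0.005 in limma). Slc7a11, the cystine and glutamate exchanger and an ATF4 target, was at -1.97 and -2.01 at passage 7, against 0.30 and 0.19 at passage 2, and fell by 2.23 ± 0.18 (adjusted p = 0.0056). These falls exceeded that of every transporter in the set. Slc7a2, a carrier of cationic amino acids, fell by 1.90 ± 0.23 (adjusted p = 0.011 in limma). It was also called on the mean of its probes (-1.65, adjusted p = 0.041). With every probe tested on its own it was not called, at a median over its probes of -1.65 (median adjusted p = 0.066). Slc1a3, a glutamate carrier, fell by 1.85 ± 0.19 (adjusted p = 0.0079).

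The 2 that rose were Slc3a1, a heavy chain that pairs with another light chain than Slc3a2 does in kidney, by 2.35 ± 0.28 (adjusted p = 0.01 in limma), and Slc38a9, a lysosomal amino acid sensor, by 1.17 ± 0.20 (adjusted p = 0.02). Slc38a9 missed the 2-fold minimum with median scaling (1.00, short of it before rounding) and in the authors' table (0.78), and its call ended on leaving out passage 7 replicate 1 (adjusted p = 0.097) or passage 7 replicate 2 (adjusted p = 0.11).

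Of 18 other enzymes of amino acid and one-carbon metabolism, 4 fell (22.2%) and none rose, beside 9.42% and 9.99% of all genes. At an unadjusted p under 0.05 in limma, 7 were lower and 0 higher, beside 17.4% and 24.2% of all genes. Aldh1l2, a mitochondrial enzyme that oxidises formyl folate and an ATF4 target, fell by 1.90 ± 0.23 (adjusted p = 0.011). Prodh, the first enzyme of proline breakdown, fell by 1.69 ± 0.19 (adjusted p = 0.0093). The mitochondrial folate enzymes Mthfd2l and Mthfd1l were 2.14-fold and 2.05-fold lower (SE of 0.21 and 0.23 on the log2 scale; adjusted p = 0.027 and 0.035). Leaving out passage 7 replicate 1 gave Mthfd2l and Mthfd1l adjusted p-values of 0.13 and 0.14. Leaving out passage 7 replicate 2 gave 0.13 and 0.16, and leaving out passage 2 replicate 2 gave 0.059 and 0.066, so both calls ended in each case.

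The charging enzymes outside the set gave no calls, beside 9.99% of all genes called higher and 9.42% lower. At an unadjusted p under 0.05, their counts stand beside 24.2% of all genes higher and 17.4% lower. Of 16 mitochondrial synthetases tested, 0 were called, with 1 higher and 1 lower at an unadjusted p under 0.05 in limma. Of 10 other cytosolic synthetases and cofactors, 0 were called and 0 were at an unadjusted p under 0.05 in either direction. Their medians relative to all genes were 0.16 and -0.01. The same value was -0.35 for the other metabolic enzymes and 0.23 for the other transporters.

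**Figure D4:**
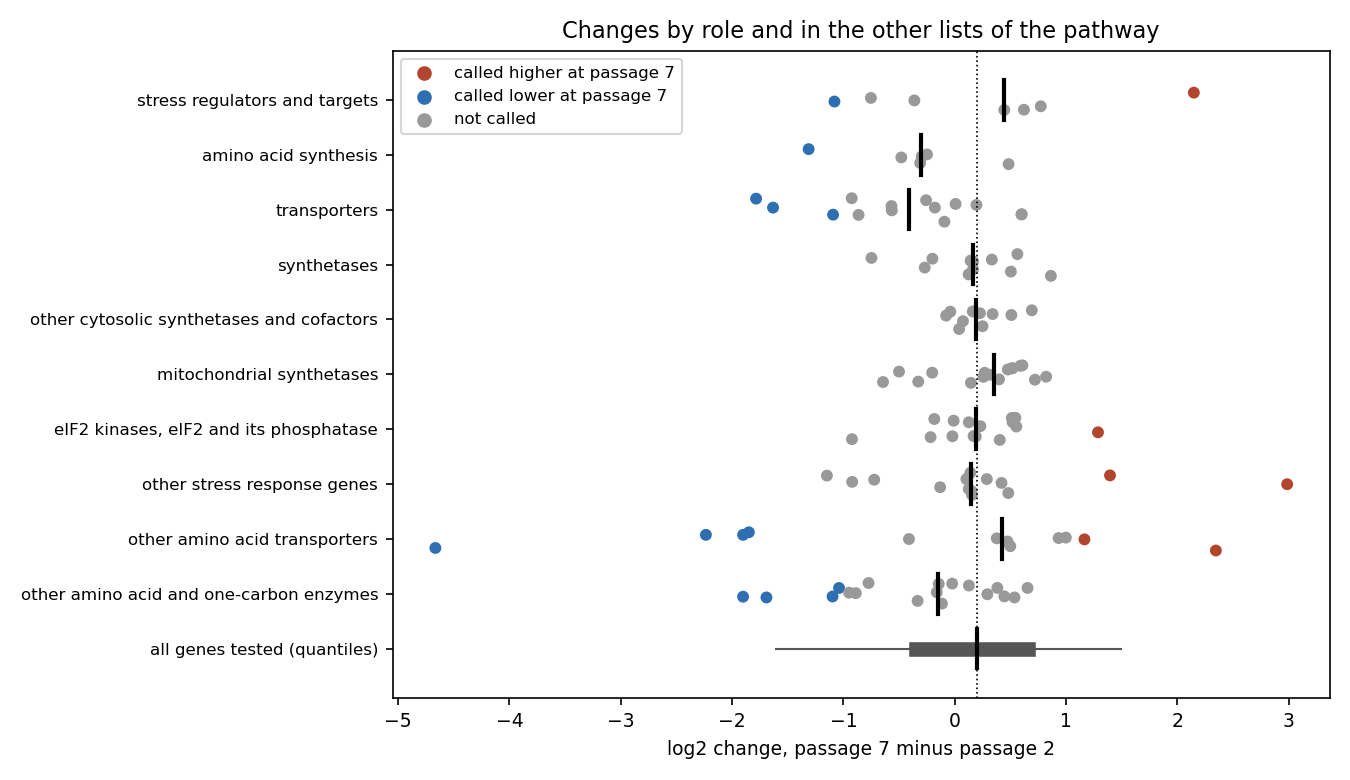
Log2 change (horizontal axis, passage 7 minus passage 2) of each gene tested in the 4 roles and in 6 further lists; black bars are medians, and the bottom row gives the 5th, 25th, 50th, 75th and 95th percentiles of all genes, with their median as the dotted line. Points of the 3 synthetase rows lie close to the median of all genes without a call, while the other transporters span -4.66 to 2.35.

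Set against the promoter windows, 11 measured members with the core had 0 calls higher and 1 lower (Vldlr), with a median change of -0.26 and a range of -1.08 to 0.62. The 19 with an entry but without the core in the bases searched had 1 higher (Ddit3) and 2 lower (Psat1 and Slc7a8), with a median of -0.20. Whether these genes hold the core further from the start was not tested. The 8 without an entry had 2 lower (Slc7a3 and Slc1a5). Over all genes tested, 9.99% were called higher and 9.42% lower. Among the sequences shown with the core TGATGCAA, the changes were 0.62 in Chac1, 0.20 in Slc7a7, 0.17 in Tars and 0.16 in Yars. They were -0.27 in Iars and -1.08 in Vldlr, and of these genes only Vldlr was called.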

How the data were processed

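The authors deposited 1 scanner file per array, made by version 10.5.1.1 of Agilent's Feature Extraction per the file headers, with median, background and processed spot intensity and flags; the processed intensity is already background-subtracted. The authors' value table holds log2 values per spot that correlate with the log2 median intensity; the columns had medians of 6.24 and 6.14 (passage 7) and 6.30 and 6.30 (passage 2), its direction is that of the signal, and its centring is unknown. Limma is named without a version, per the submitters' processing notes.

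From the deposited intensity values, log2 of the processed signal minus each array's 75th percentile was computed (signals of 964 and 402 at passage 7 and of 1024 and 1404 at passage 2). Outlier spots were left out (14 to 61 per array), and 0 spots were saturated. Spots of a probe were averaged, and a gene was given by its probe of highest mean. Of 31850 probes with a RefSeq accession, 31089 matched a symbol (table of GRCm38.p6; no gene coordinates are given because the array design used another build). The 13847 genes whose probe was well above background on the 2 arrays of either passage were tested together, two-sided. The test was lmFit and eBayes of limma (version 3.58.1, R 4.3.3) with Benjamini-Hochberg adjustment. Every adjusted p comes from this fit, except that one given for another setting or a single probe comes from the fit rerun there. The number of arrays limits the precision.

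The members and lists were chosen with earlier results of these data known. Values on each array are given for called members, for Atf4, Ddit3, Trib3, Chac1, Asns, Slc7a5 and Slc3a2, and for the largest change of each role; from the other lists, called genes are named. Same-numbered arrays did not deviate together (correlation -0.17), so replicate numbers were not used as pairs. Alternatives were other background corrections, scalings, filters, probe rules, variance models and thresholds, a replicate block and leaving out each array. With 1 array left in a passage, it is assumed to vary like the other passage's arrays. The fit was tested on simulated data.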

Additional observations from a re-analysis of the deposited data

How the results depend on the processing

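All 6 member calls held, with their direction, under quantile normalization, median scaling, the authors' value table, the filter on all 4 arrays, the mean of probes, the trend and robust variance model, every probe tested and without the passage 2 replicate 1 array. None changed sign in any alternative run. With the normexp background correction (offset of 50, on median intensity) limma called 0 of 13847 genes, with 664 at an unadjusted p under 0.05, and hence 0 members higher and 0 lower, including 0 stress genes either way, 0 synthesis enzymes and 0 transporters lower; the cause was not tested. With normexp, the changes were 1.69 for Ddit3, -0.90 for Vldlr and -1.86 for Psat1. They were -0.10 for Slc7a3, -0.30 for Slc7a8 and -0.55 for Slc1a5. Prodh then had 0.45 (adjusted p = 0.84, and -0.93 to -1.86 with the other scalings). Normexp with quantile normalization called 1266 genes and lost Vldlr, Slc7a3 and Slc7a8 (0 stress genes lower). Without a filter on dim probes 1771 genes passed and Slc7a8 did not. Median scaling and the authors' value table each gave 5 transporters lower, and quantile normalization 2 stress genes lower. With no minimum fold, 3 members were higher (Atf5, Cars and Ddit3), of them 2 stress genes and 1 synthetase, and 6 were lower, with Slc38a2 added; 13.4% of all genes were higher and 11.9% lower there.

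With 1 array left out, the lower members numbered 2 to 6, the stress genes and synthesis enzymes lower 0 to 1 each, and the transporters lower 2 to 4, over 1152 to 3458 genes called against 2689. Of all calls, 51.5% were higher, against 42.2% with quantile normalization, 41.2% with median scaling, 35.3% in the authors' value table, and 40.3% to 59.9% with an array left out. Medians relative to all genes, in the order quantile normalization, normexp, and both, were -0.26, -0.51 and -0.24 for stress genes, -0.70, -1.23 and -0.68 for synthesis enzymes and -0.34, -0.69 and -0.26 for synthetases. For transporters, normexp gave -0.88, normexp with quantile normalization -0.43, and the authors' value table -0.41. Without a filter the synthesis enzymes had -0.63 and the transporters -0.74, and with an array left out the transporters ranged over -0.73 to -0.54 and the synthetases over -0.14 to 0.10.

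With the replicate number as a block, 1173 genes passed and 2 members were lower, with 0 stress genes and 0 synthesis enzymes among them. The deviations of same-numbered arrays had a correlation of -0.17. The crossed pairing, added after seeing the data, called 3066 genes, 1 member higher and 5 lower. The labels do not say that numbers mark shared cultures. The lower signal of the passage 7 replicate 2 array limits the values of dim genes.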
